A study of Mus musculus with 9 samples.

Results

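The 51 genes described here encode the nuclear subunits of respiratory complexes II, III, IV and V and the assembly factors of complex II, measured in mouse striatum after MPTP. They were taken from the platform annotation as every gene with a probe set of its own symbol beginning Sdha to Sdhd, Uqcr, Cyc1, Cox4 to Cox8 or Atp5, out of 19935 genes with such a probe set. Each gene was represented by its probe set with the highest mean over the 9 arrays. The choice used names and mean level, and no difference between groups. A gene symbol in the annotation is the design's own, so most subunits of ATP synthase appear under their older names (Atp5a1, Atp5o and so on). Some, such as Atp5pb, Atp5md and Atp5mpl, appear under newer names.

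Total RNA of striatum was hybridised to 9 one-colour arrays, 3 in each of 3 groups. Saline was given 4 times at intervals of 2 h to control mice, whose striatum was taken 1 week on. The acute group had 4 injections of MPTP at 20 mg/kg, 2 h apart, and was also sampled after 1 week. The chronic group received MPTP daily over 20 days at 4 mg/kg, with tissue taken at 8 weeks, and the total was 80 mg/kg in either MPTP group. Dosing and time of sampling changed together in the chronic group, with no saline group at 8 weeks among these samples, so their parts in a chronic difference cannot be told apart. Strain, sex and age are not given in the sources used here. The labels do not tie an array to an animal, so a p-value here measures the spread between 3 arrays per group, which may be technical. MPTP is a compound whose metabolite enters dopamine neurons and inhibits complex I, the respiratory enzyme that is not among the genes here. In a piece of tissue, fewer cells of a type and less RNA per cell cannot be told apart.

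Complex II oxidises succinate and passes its electrons to ubiquinone. Complex III carries them on to cytochrome c, complex IV hands them to oxygen, and complex V, the ATP synthase, makes ATP from the proton gradient that complexes I, III and IV build. Subunits of complexes III, IV and V come from nuclear and mitochondrial genomes, those of complex II from the nucleus alone. Some complex IV subunits exist as a general form and as a second form found mainly in muscle, lung or testis. Striatal projection neurons depend on oxidative phosphorylation, and inhibition of complex II is known to damage the striatum.

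Promoter sequence was at hand for 39 of the 51 genes, as windows of 300 bases from 250 before to 50 after the annotated start, from RefSeq on GRCm38.p6. Windows were searched on both strands for the letters of motifs bound by regulators of respiratory genes: GCGCATGCG for NRF1, CCGGAAG for the ETS family that includes GABP (NRF2), and AAGATGGC for YY1. The NRF1 letters were in 6 of 39 members (15.4%) against 1.95% of all 27025 genes in the table, and the ETS letters in 16 (41%) against 9.93%. The YY1 letters were in 3 (7.69%) against 3.19%. At least 1 of the motifs was in 20 members (51.3%), against 14.1% of all genes and 17.7% of protein-coding genes. By role, 8 of 11 genes of the membrane part and stalk of complex V and 3 of 4 assembly factors of complex II held a motif, and 0 of 4 tissue-restricted subunits of complex IV did. A match is a run of letters, not a binding site.

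The 150 bases before the start are shown for 4 members. Atp5k and Atp5o belong to the same enzyme, and their mean differences from controls after chronic MPTP had opposite signs. The chronic and control arrays of Atp5k overlapped. Cox6a1 is a general complex IV subunit with an ETS run, and Cox7a1 is a muscle-type subunit with none of the motifs and the largest difference from controls relative to its error. Capitals mark the motif letters: an NRF1 run read on both strands in Atp5k, and an ETS run read on the opposite strand in Cox6a1. In the full windows of 300 bases, Atp5k and Cox6a1 each held the NRF1 and the ETS letters. Atp5k is at chr5:108434400-108434549 (minus strand, overlapping the annotated gene Gm34319), Atp5o at chr16:91931631-91931780 (minus), Cox6a1 at chr5:115348959-115349108 (minus) and Cox7a1 at chr7:30184021-30184170 (plus).
Atp5k: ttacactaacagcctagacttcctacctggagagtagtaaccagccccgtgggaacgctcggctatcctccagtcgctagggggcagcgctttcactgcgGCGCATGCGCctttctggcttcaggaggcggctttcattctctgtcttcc
Atp5o: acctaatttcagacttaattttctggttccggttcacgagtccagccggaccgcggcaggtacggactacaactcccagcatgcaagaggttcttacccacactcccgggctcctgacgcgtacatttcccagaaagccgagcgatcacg
Cox6a1: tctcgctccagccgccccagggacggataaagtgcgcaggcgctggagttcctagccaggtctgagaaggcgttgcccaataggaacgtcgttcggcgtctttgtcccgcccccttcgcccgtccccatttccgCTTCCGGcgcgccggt
Cox7a1: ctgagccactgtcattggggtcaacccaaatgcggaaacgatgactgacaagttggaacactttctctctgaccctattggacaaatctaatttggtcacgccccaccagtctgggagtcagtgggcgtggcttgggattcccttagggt

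The values are log2 intensities, so a difference of 1 is a doubling. Array medians lay between 6.85 and 6.90. Markers of striatal projection neurons were present on all 9 arrays (Ppp1r1b, the phosphoprotein DARPP-32, at 11.44 to 12.31, and Drd2, a dopamine receptor, at 10.88 to 12.01), but arrays also carried unequal amounts of neighbouring tissue. Over 13 tested genes of cortical glutamatergic neurons, the mean deviation from each gene's own mean was 0.97 on control 1, 0.61 on acute 1 and 0.82 on acute 2, and below 0 on the other arrays. The summed level of that list, on the linear scale, ran from 7045 to 16349 in controls, 7175 to 16472 in the acute group and 8205 to 8594 in the chronic group. The list of 15 genes of thalamus, septum and hypothalamus stood at 1.38 on control 3 and 0.74 on acute 3. Choroid plexus genes stood at 0.86 and 1.61 on the same arrays. The 11 oligodendrocyte genes were lowest on chronic 2, at -0.48. The part of these tissues in the differences below was not tested, and some results are also given without the 3 cortex-rich arrays, which leaves 2 controls, 1 acute array and 3 chronic arrays.

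No gene of complexes II to V passed the test after either MPTP regimen. Of the 51, 50 were tested; Cox7b2, a testis-type subunit, lay at 5.18 to 5.36 on the 9 arrays, below the low-value limit of 5.63. In limma with Benjamini-Hochberg adjustment over 17480 probe sets, the count with an adjusted p under 0.05 was 0 in acute against control, where 0.0% of all probe sets passed, 0 in chronic against control, where again 0.0% passed, and 0 in chronic against acute, where 0.0114% passed. At an unadjusted p under 0.05 the counts were 0 of 50 against 0.932% of all probe sets, 3 of 50 (6.0%) against 5.38%, and 2 of 50 (4.0%) against 5.11%. These shares are near the background.

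Every point estimate of the 50 tested members lay within 1.5-fold in either direction. The intervals bounded the size of the differences but did not show that they were small, and for many members a small difference was not resolved. The 95% interval of the difference lay within 1.5-fold in either direction for 46 of 50 members in acute against control, 45 in chronic against control and 42 in chronic against acute, and within 2-fold for 50 of 50 in each. Among all probe sets tested the intervals lay within 1.5-fold for 87.9%, 82.4% and 82.6%. The median standard error of a member was 0.13, close to the 0.12 of all probe sets. Point estimates ran from -0.19 to 0.23 in acute against control, from -0.38 to 0.29 in chronic against control and from -0.43 to 0.26 in chronic against acute.

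**Figure D1:**
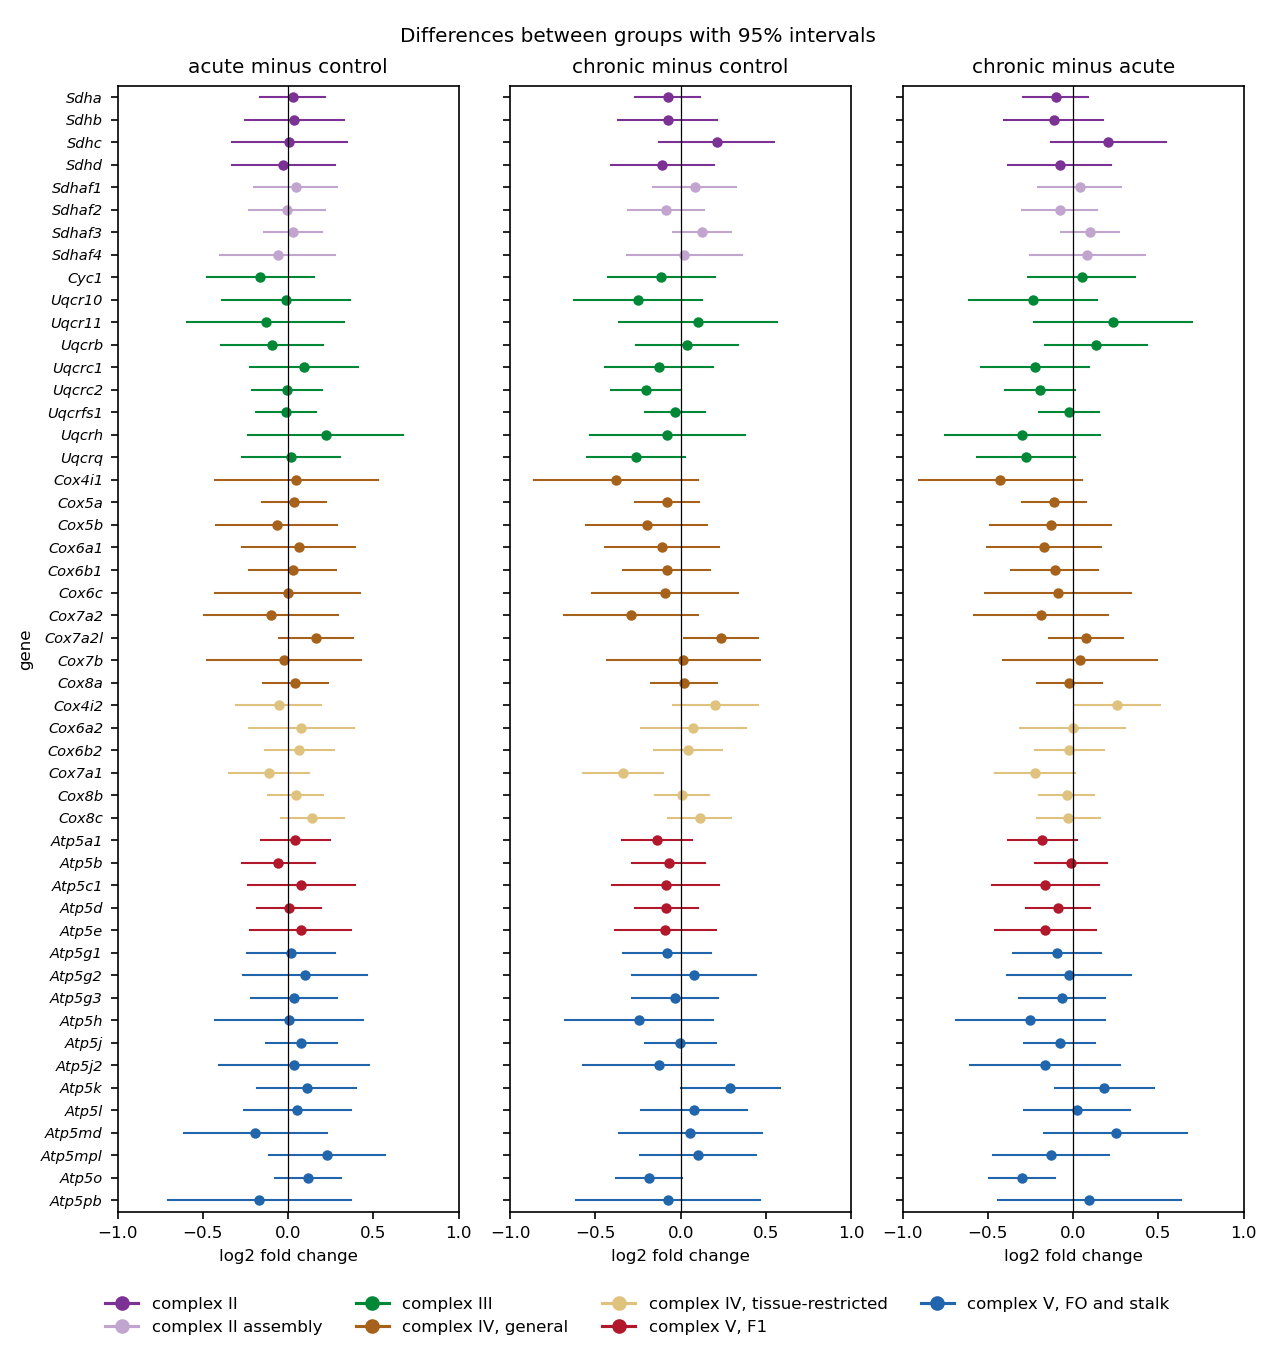
Log2 fold change (point) and 95% interval (line) of 50 genes in 3 comparisons, coloured by the complex and role of the gene. The point estimates stay between -0.43 and 0.29, and in chronic against acute 36 of 50 lie left of 0.

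In direction, members leaned up after acute MPTP and down after chronic MPTP. They were higher than controls in 32 and lower in 18 after acute MPTP, where 52.5% of all probe sets were higher. The median difference was 0.03 against 0.01 over all probe sets. Between arrays of a group the members' median deviation had an SD of 0.05, more than the acute median difference. After chronic MPTP 19 members were higher and 31 lower, where 53.4% of all probe sets were lower, with a median of -0.08 against -0.01. Chronic against acute, 14 were higher and 36 lower, where 54.9% of all probe sets were lower. The median was -0.08 against -0.02, and this comparison shares its chronic arrays with the one before. The leans against control rested on few arrays. The acute median was -0.01 without control 3 and -0.02 with the cortex and thalamus list means as covariates. The chronic median was -0.01 without chronic 2, with 23 members higher and 27 lower, and -0.02 without control 2. With those covariates the chronic median against control was -0.11, with 41 members lower. The cortex list mean was low on every chronic array (-0.62 to -0.29), so these covariates partly overlap with group. Chronic against acute kept its sign with each array left out in turn. Its median ran from -0.12 (without chronic 1) to -0.04 (without chronic 2), with 32 to 37 members lower, and was -0.11 with the covariates. Without the 3 cortex-rich arrays it was -0.02, with acute 3 as the lone acute array.

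Few members had groups that did not overlap, and their shares stayed within a few points of the background. In acute against control, Cox8b and Atp5a1 were above all controls (2 of 50, 4.0%, against 2.19% of all probe sets) and 0 were below (against 1.45%). In chronic against control, Sdhaf3 was above all controls (1 of 50, against 2.8%) and Uqcrq, Cox5a, Cox7a1 and Atp5o were below (4 of 50, 8.0%, against 3.52%). In chronic against acute, Sdhaf3 was again above (1 of 50, against 3.52%) and Cox7a1, Atp5a1, Atp5d and Atp5o were below (4 of 50, 8.0%, against 4.97%).

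**Figure D2:**
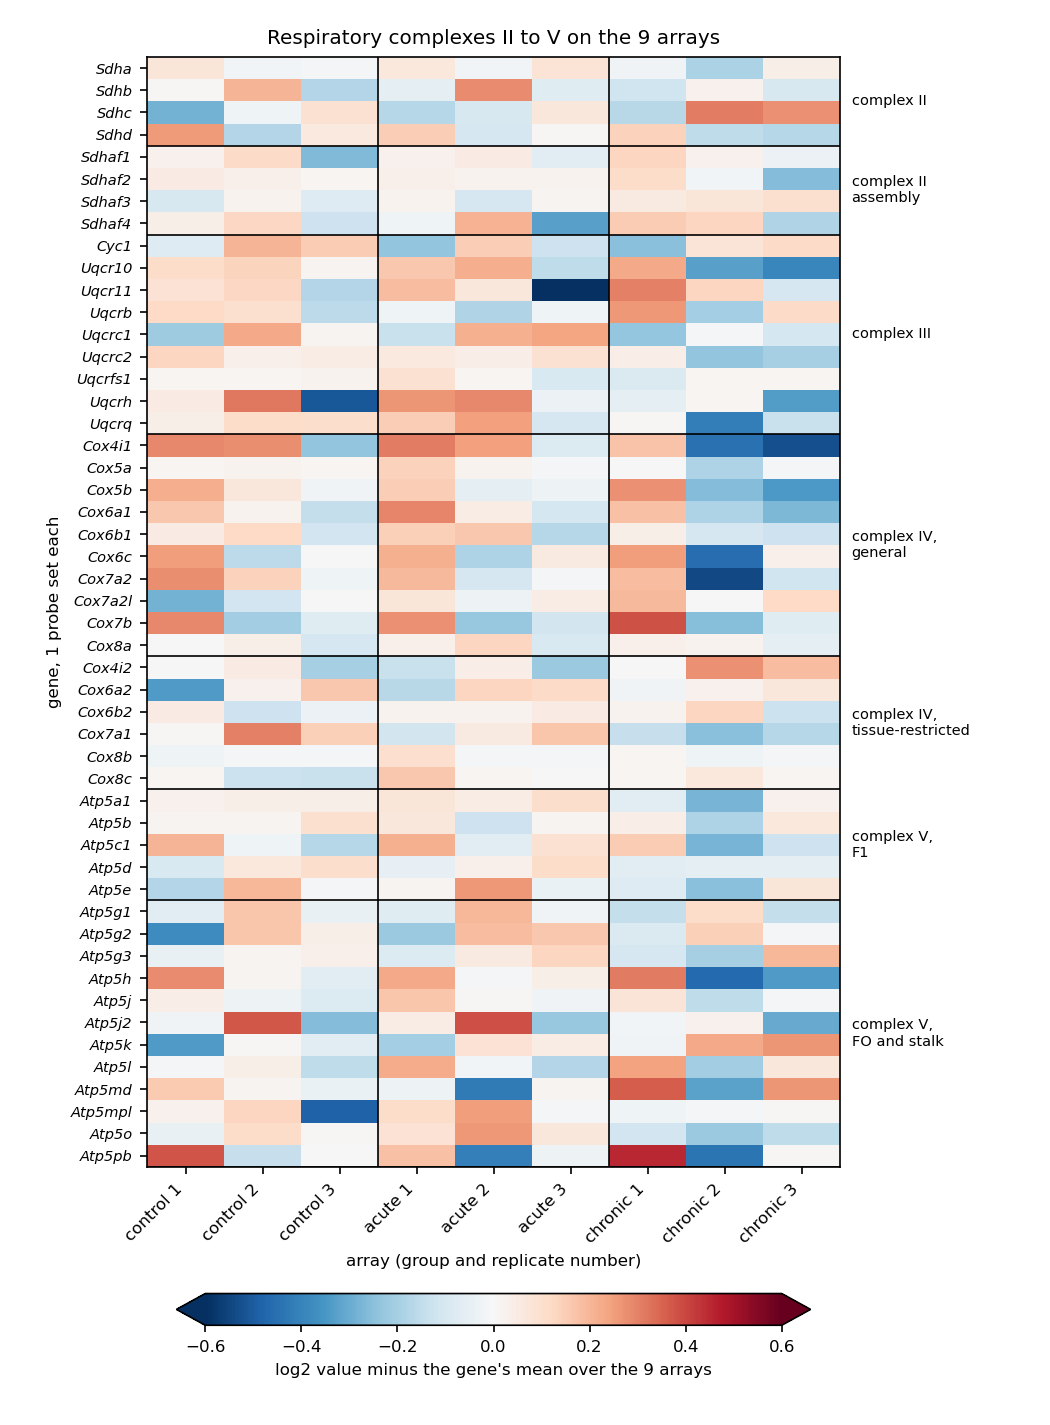
Each row is 1 of the 50 tested genes and each column 1 array; colour gives the log2 value minus the gene's mean over the 9 arrays, with values beyond the scale in its end colours. Chronic 2 is the lowest array for 20 of 50 genes, and general complex IV subunits are high on the arrays numbered 1 in every group.

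Complex II differed little between groups. Sdha, the flavoprotein that oxidises succinate, read 11.50, 11.41 and 11.41 in controls, 11.48, 11.41 and 11.50 after acute MPTP and 11.40, 11.23 and 11.46 after chronic MPTP. The 3 groups overlapped, and only chronic 2 was set apart from the rest. The chronic difference of Sdha was -0.07 ± 0.08 (SE; adjusted p = 0.975). Sdhb, the iron-sulfur subunit, read 9.92, 10.12 and 9.74, then 9.86, 10.20 and 9.84, then 9.80, 9.94 and 9.82, with the array numbered 2 highest in all 3 groups. Its chronic difference was -0.08 ± 0.13 (adjusted p = 0.981). Sdhd, a membrane anchor, differed by -0.11 ± 0.13.

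Sdhc, the other membrane anchor, went the other way. It read 10.17, 10.43 and 10.55 in controls, 10.28, 10.36 and 10.52 after acute MPTP and 10.29, 10.76 and 10.73 after chronic MPTP. Chronic 2 and 3 were above every array of the other groups, while chronic 1 lay among the lowest. The difference was 0.21 ± 0.15 against control (adjusted p = 0.969) and 0.20 ± 0.15 against acute (adjusted p = 0.873).

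Of the 4 assembly factors, Sdhaf3, which helps build the iron-sulfur subunit into the complex, was the member above all arrays of both other groups after chronic MPTP. It read 8.55, 8.67 and 8.57 in controls, 8.67, 8.55 and 8.66 after acute MPTP and 8.70, 8.72 and 8.74 after chronic MPTP. The chronic arrays were close together and just above the highest of the others, a difference of 0.13 ± 0.08 (adjusted p = 0.96). Sdhaf1, Sdhaf2, the flavination factor, and Sdhaf4 differed from controls by 0.08, -0.09 and 0.02 after chronic MPTP. Sdhaf4 has another probe set that differed in sign in acute against control, at 0.27 beside -0.06.

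Complex III was the role with the lowest median after chronic MPTP, at -0.11 against control and -0.19 against acute over its 9 genes, with 7 of 9 and 6 of 9 lower. Without chronic 2 the medians were -0.15 and -0.14. Against control the median was -0.04 without control 2. Uqcrc2, a core protein, read 11.66, 11.56 and 11.58 in controls, 11.59, 11.57 and 11.62 after acute MPTP and 11.57, 11.30 and 11.33 after chronic MPTP. Chronic 2 and 3 were below every other array, and chronic 1 was among the others. The difference of Uqcrc2 was -0.20 ± 0.09 against control (adjusted p = 0.929) and -0.19 ± 0.09 against acute (adjusted p = 0.873).

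Uqcrq, a small subunit, read 9.54, 9.62 and 9.61 in controls, 9.65, 9.75 and 9.40 after acute MPTP and 9.51, 9.09 and 9.37 after chronic MPTP. All chronic arrays were below all controls, chronic 1 narrowly. The difference was -0.26 ± 0.13 against control (adjusted p = 0.94) and -0.28 ± 0.13 against acute (adjusted p = 0.873). Against control it was -0.15 without chronic 2. Uqcr10, another small subunit, showed the same arrays low, at 9.17, 8.62 and 8.55 after chronic MPTP beside 8.95 to 9.07 in controls.

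Other subunits of complex III differed in the order of their arrays. Cyc1, cytochrome c1, read 10.76, 11.05 and 11.00 in controls, 10.61, 10.99 and 10.72 after acute MPTP and 10.59, 10.92 and 10.96 after chronic MPTP. The array numbered 1 was lowest in each group, and the differences from control were -0.16 ± 0.14 (acute) and -0.11 ± 0.14 (chronic), with adjusted p = 1.0 and 0.977. Uqcrc1, the other core protein, read 10.57, 11.01 and 10.80, then 10.65, 11.00 and 11.02, then 10.55, 10.77 and 10.68, again with number 1 lowest throughout. Uqcrfs1, the Rieske iron-sulfur protein, hardly moved: its 9 arrays lay between 8.37 and 8.55 and its chronic difference was -0.04 ± 0.08 (95% interval -0.21 to 0.14). The hinge protein Uqcrh ranged widely, from 9.69 on control 3 to 10.52 on control 2, and differed by 0.22 ± 0.20 after acute MPTP, which was -0.01 without control 3.

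Among general subunits of complex IV, the nuclear subunits made in most tissues, 7 of 10 were lower after chronic MPTP than in controls, with a median of -0.09 that was -0.04 without chronic 2. Cox4i1, the main form of subunit 4, had the lowest chronic point estimate of any member. It read 10.87, 10.86 and 10.35 in controls, 10.90, 10.83 and 10.51 after acute MPTP and 10.76, 10.14 and 10.06 after chronic MPTP. Chronic 2 and 3 were below all the other arrays, chronic 1 was not, and control 3 and acute 3 were low within their own groups. The difference was -0.38 ± 0.21 against control (adjusted p = 0.957) and -0.43 ± 0.21 against acute (adjusted p = 0.873).

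Cox5b, which carries zinc, read 11.94, 11.79 and 11.70 in controls, 11.87, 11.67 and 11.70 after acute MPTP and 11.997, 11.465 and 11.379 after chronic MPTP. Its chronic group held both the highest array and the lowest ones, and the difference was -0.20 ± 0.16, or -0.08 without chronic 3. Cox5a read 10.09, 10.10 and 10.09, then 10.22, 10.10 and 10.07, then 10.08, 9.89 and 10.07. Its chronic arrays were below all controls, chronic 1 by less than a hundredth of a log2 unit, a difference of -0.08 ± 0.08 (adjusted p = 0.975).

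Cox7a2l, a factor that joins complexes III and IV into supercomplexes, was the general complex IV gene with the highest chronic difference. It read 7.87, 8.03 and 8.15 in controls, 8.22, 8.12 and 8.19 after acute MPTP and 8.35, 8.15 and 8.27 after chronic MPTP. Control 1 was the lowest array and control 3 reached into the MPTP groups. The difference was 0.16 ± 0.10 after acute MPTP (adjusted p = 1.0) and 0.24 ± 0.10 after chronic MPTP (unadjusted p = 0.0349, adjusted p = 0.918). A dimmer probe set of the gene gave 0.01 and 0.20. Without control 1 the differences were 0.09 and 0.16.

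**Figure D3:**
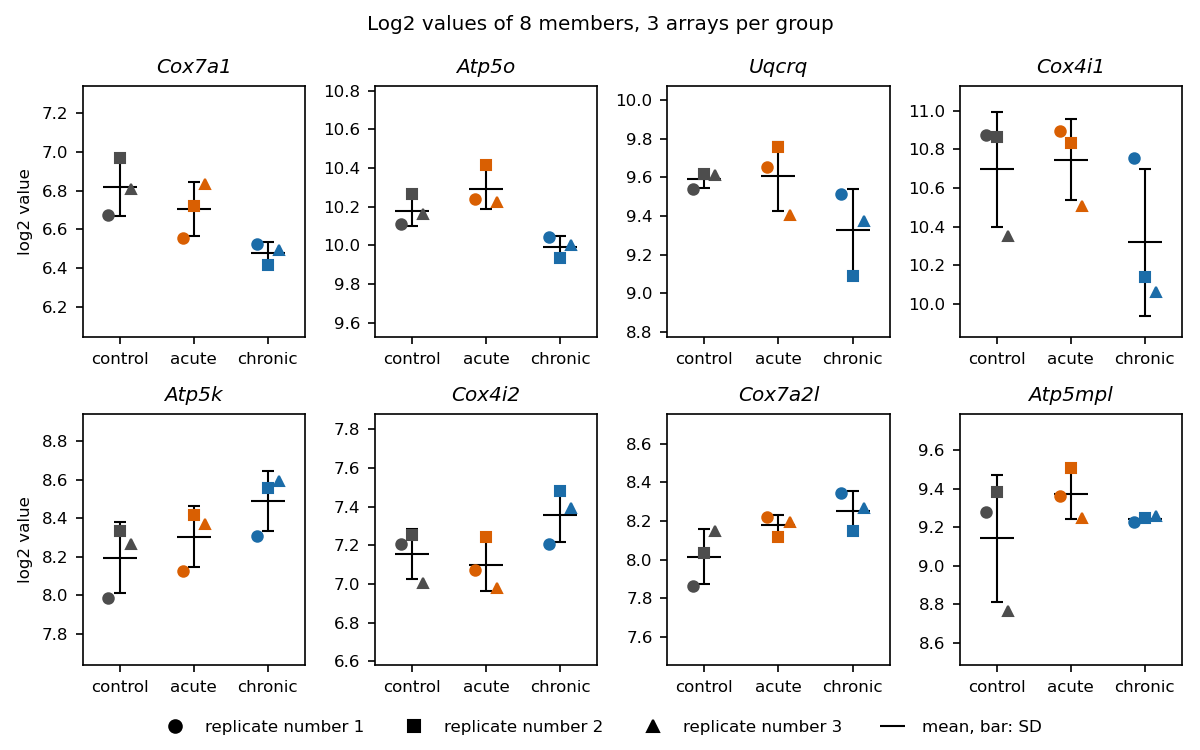
Log2 values of 8 members on the 9 arrays; marker shape gives the replicate number, the wide dash the group mean and the bar the SD of 3 arrays, and every panel spans the same range. Cox7a1 and Atp5o were lower on all 3 chronic arrays than on any other array, whereas Cox4i1 was lower on chronic 2 and 3 but not on chronic 1.

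The alternative forms of complex IV subunits did not move as a group. Cox7a1, the heart and muscle form of subunit 7a, had the smallest p of any member against control. It read 6.68, 6.97 and 6.81 in controls, 6.56, 6.72 and 6.83 after acute MPTP and 6.53, 6.42 and 6.49 after chronic MPTP. These values are low, about the array medians of 6.85 to 6.90. All 3 chronic arrays were below all 6 others. The difference was -0.34 ± 0.10 against control (95% interval -0.57 to -0.10, unadjusted p = 0.00993, adjusted p = 0.900). It ranged from -0.41 (without control 1) to -0.26 (without control 2) when each array was left out in turn. Of the 3 cortex-rich arrays only control 1 enters this comparison, so leaving them out gives the same -0.41. The liver form, Cox7a2, read 10.52, 10.38 and 10.22, then 10.44, 10.14 and 10.24, then 10.43, 9.70 and 10.12, and differed by -0.29 ± 0.17 (adjusted p = 0.96), and by -0.10 without chronic 2, its lowest array. Genes of striated muscle, where Cox7a1 is a main form, were flat, with list means between -0.14 and 0.10 on the 9 arrays. They read as low as Cox7a1 (Acta1 at 7.08 to 7.51, Ckm at 6.35 to 6.76), so their flatness says little about it.

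Subunit 4 showed opposite point estimates for its forms. Cox4i2, the form known from lung and from oxygen sensing, read 7.21, 7.25 and 7.01 in controls, 7.07, 7.25 and 6.98 after acute MPTP and 7.21, 7.48 and 7.39 after chronic MPTP. Chronic 2 and 3, the arrays on which Cox4i1 was lowest, were the highest for Cox4i2. The values of Cox4i2 are low, not far above the array medians of 6.85 to 6.90. The difference was 0.20 ± 0.11 against control (adjusted p = 0.944) and 0.26 ± 0.11 against acute (unadjusted p = 0.0441, adjusted p = 0.873).

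The remaining forms differed little between groups. Cox6a1, the liver form of subunit 6a, read 11.65, 11.51 and 11.34 in controls, 11.78, 11.53 and 11.38 after acute MPTP and 11.66, 11.30 and 11.21 after chronic MPTP. Number 1 was highest and number 3 lowest in each group. Cox6a2, the muscle form, read 7.27, 7.64 and 7.77, then 7.45, 7.74 and 7.73, then 7.59, 7.64 and 7.68, with number 1 lowest in each group. Cox6b1 lay between 11.24 and 11.58 on the 9 arrays, Cox6b2 between 6.25 and 6.50, Cox8a between 12.02 and 12.24 and Cox8b between 6.29 and 6.42, and in none of them were the chronic arrays set apart from both other groups. Cox6a1 and Cox6a2 differed from controls after chronic MPTP by -0.11 ± 0.15 and 0.08 ± 0.14. Cox6b1 and the testis form Cox6b2 differed by -0.08 ± 0.11 and 0.04 ± 0.09. Cox8a, the muscle form Cox8b and the testis form Cox8c differed by 0.02 ± 0.08, 0.01 ± 0.07 and 0.11 ± 0.08. Cox8c had the smallest p in acute against control, with a difference of 0.14 ± 0.08 and 6.06, 5.92 and 5.91 in controls beside 6.21, 6.06 and 6.05; these values are near the low end of the scale. Cox7b differed by 0.02 ± 0.20, and Cox6c, another general subunit, by -0.09 ± 0.19, and both varied strongly between arrays of the same group.

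The catalytic F1 part of complex V was lower after chronic MPTP in 5 of 5 subunits, against control and against acute, with medians of -0.09 and -0.16. Atp5a1, the alpha subunit, read 11.64, 11.65 and 11.65 in controls, 11.69, 11.66 and 11.72 after acute MPTP and 11.55, 11.34 and 11.64 after chronic MPTP. Acute arrays were above all controls by small steps, and chronic arrays were below all acute ones, chronic 2 by the most. The differences were 0.04 ± 0.09 for acute and -0.14 ± 0.09 for chronic against control, and -0.18 ± 0.09 for chronic against acute (adjusted p = 1.0, 0.962 and 0.873).

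Atp5b, the beta subunit that holds the catalytic sites, read 12.84, 12.84 and 12.92, then 12.89, 12.70 and 12.84, then 12.86, 12.64 and 12.89. Its groups overlapped and the chronic difference was -0.07 ± 0.09 (adjusted p = 0.978). Atp5c1 (gamma), Atp5d (delta) and Atp5e (epsilon) differed by -0.09 ± 0.14, -0.08 ± 0.08 and -0.09 ± 0.13. On chronic 2, 0 of 5 F1 subunits were above their own mean over the arrays, and without that array the median of F1 against control was -0.01.

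The membrane part and stalk of complex V, 12 genes, split. Atp5o, the oligomycin sensitivity conferring protein that links F1 to the stator, had the smallest p of any member in chronic against acute. It read 10.11, 10.27 and 10.16 in controls, 10.24, 10.42 and 10.22 after acute MPTP and 10.042, 9.934 and 10.002 after chronic MPTP. All 3 chronic arrays were below all 6 others. The difference was -0.30 ± 0.09 against acute (95% interval -0.50 to -0.11, unadjusted p = 0.00654, adjusted p = 0.873) and -0.19 ± 0.09 against control (adjusted p = 0.931). With each array left out in turn it stayed between -0.34 and -0.24 against acute, and between -0.22 and -0.14 against control.

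Atp5k, subunit e, which helps the synthase form dimers, was higher. It read 7.99, 8.33 and 8.27 in controls, 8.13, 8.42 and 8.37 after acute MPTP and 8.31, 8.56 and 8.59 after chronic MPTP. Number 1 was lowest in each group, and each chronic array was above the control and the acute array of its own number. The difference was 0.29 ± 0.13 against control (unadjusted p = 0.0488, adjusted p = 0.924) and 0.18 ± 0.13 against acute (adjusted p = 0.873). Against control it was 0.19 without control 1.

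After acute MPTP, Atp5mpl, a small proteolipid of the synthase, and Atp5md (DAPIT), a dimer-associated subunit, lay at the ends of the range. Atp5mpl read 9.28, 9.38 and 8.77 in controls and 9.36, 9.51 and 9.25 after acute MPTP, a difference of 0.23 ± 0.15 (adjusted p = 1.0) that was 0.04 without control 3. Atp5md read 11.76, 11.62 and 11.56 in controls and 11.57, 11.17 and 11.61 after acute MPTP, a difference of -0.19 ± 0.19 (adjusted p = 1.0) that came to -0.05 without acute 2 and was 0.03 without the 3 cortex-rich arrays, where acute 3 was the lone acute array. The 3 genes of subunit c, the rotor ring, kept close to controls. Atp5g1 read 11.79, 12.02 and 11.81 in controls, 11.78, 12.06 and 11.83 after acute MPTP and 11.71, 11.97 and 11.71 after chronic MPTP, with number 2 highest in every group. Atp5g2 lay between 10.89 and 11.45 on the 9 arrays, with number 1 lowest in every group, and Atp5g3 between 11.31 and 11.71. After chronic MPTP Atp5g1 differed by -0.08 ± 0.11, Atp5g2 by 0.08 ± 0.16 and Atp5g3 by -0.03 ± 0.11. Atp5h, subunit d, was at 11.11 on chronic 1 but 10.33 and 10.46 on chronic 2 and 3, against 10.74 to 11.08 in controls, and differed by -0.24 ± 0.19, or by -0.09 without chronic 2.

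**Figure D4:**
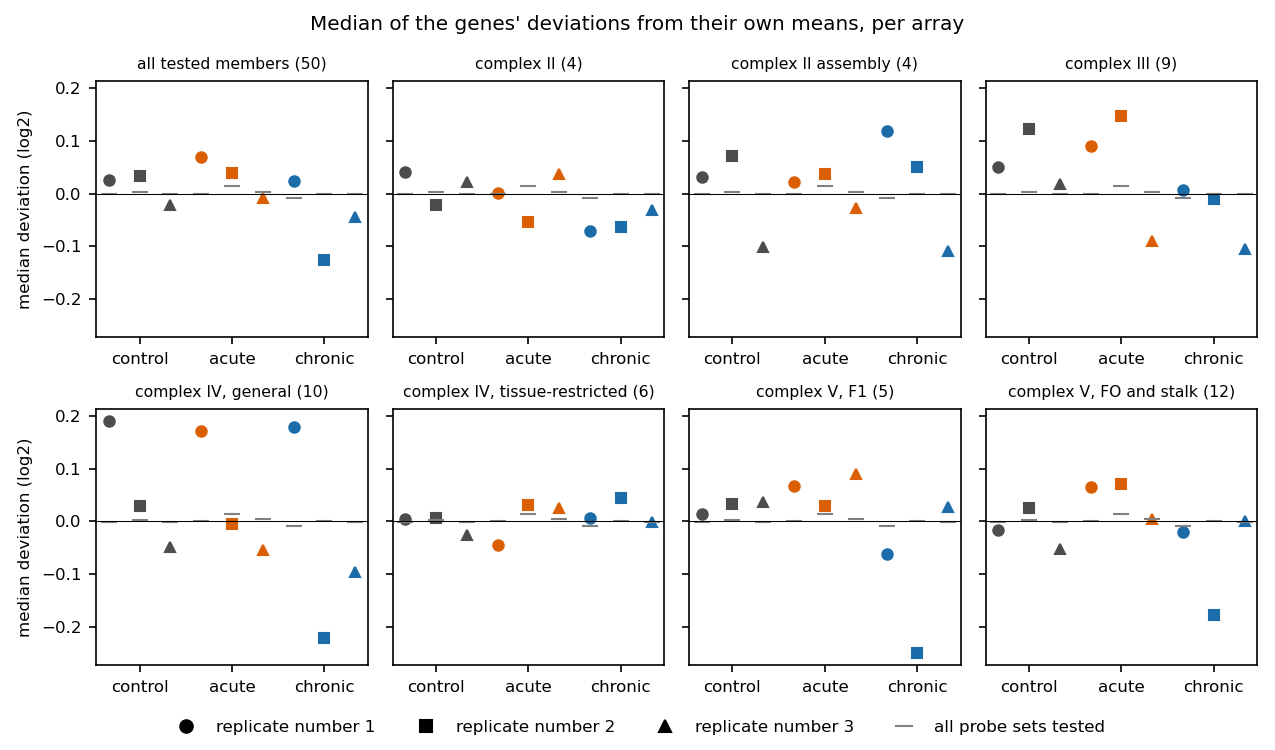
For each array, the median over the genes of a role of their deviations from their own means (log2); shape gives the replicate number, grey dashes the median of all probe sets tested, and the number of genes is in brackets. The F1 and general complex IV genes are lowest on chronic 2, at -0.25 and -0.22, and general complex IV genes lie between 0.17 and 0.19 on all 3 arrays numbered 1.

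Much of the chronic lean lay on 1 array. Chronic 2 was the lowest of the 9 arrays for 20 of 50 members, against 13.8% of all probe sets. The median deviation of the members there was -0.13, with -0.04 on chronic 3, 0.02 on chronic 1 and -0.02 to 0.07 on the other 6. Among general complex IV genes 1 of 10 was above its own mean on chronic 2, and 10 of 10 were on chronic 1. Oligodendrocyte markers were also lowest on chronic 2, with a summed level of 20318 beside 22263 to 28036 in controls. Their part in the members' values was not tested.

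Variation between arrays followed the replicate number more than the treatment. Of the sum of squares over the 9 arrays, group accounted for a median of 18.0% per member and replicate number for 54.3%, with 19.4% and 44.3% over all probe sets. Replicate number accounted for more than group in 38 of 50 members (76.0%) and in 70.5% of all probe sets. The extreme was Cox7b, which read 12.68, 12.19 and 12.32 in controls, 12.67, 12.16 and 12.29 after acute MPTP and 12.78, 12.14 and 12.32 after chronic MPTP. Number 1 was highest and number 2 lowest in all groups, and replicate number held 98.1% of its sum of squares against 0.51% for group.

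**Figure D5:**
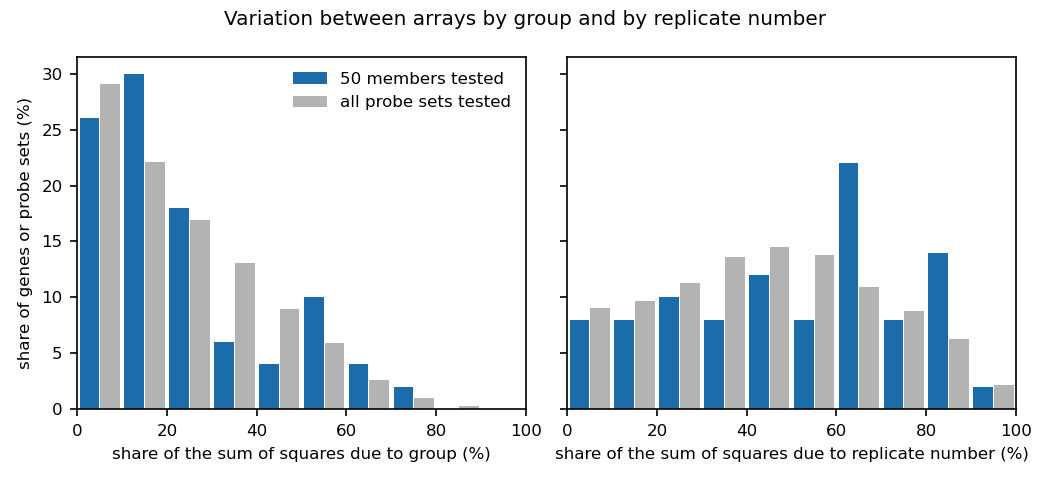
Share of each gene's sum of squares over the 9 arrays due to group (left) and to replicate number (right), in steps of 10%, as percent of the 50 members and of all probe sets tested. The median member has 18.0% due to group and 54.3% due to replicate number.

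The array numbered 1 was highest in all 3 groups for 13 of 50 members (26.0%), against 13.1% of all probe sets. They were Cox4i1, Cox5b, Cox6a1, Cox6c, Cox7a2 and Cox7b of complex IV, Atp5c1, Atp5h, Atp5j and Atp5pb of complex V, Uqcrb, Sdhd and Sdhaf2. Number 1 was lowest throughout for 7 (14%, against 17.7%): Cyc1, Uqcrc1, Sdhc, Cox6a2, Atp5d, Atp5g2 and Atp5k. Number 3 was lowest throughout for 11 (22.0%, against 9.4%), among them Cox4i1, Cox6a1, Cox8a, Uqcr10 and Uqcr11. Subunits of 1 enzyme therefore stood in different orders across the same arrays. What the number marks is not given in the labels. With the replicate number as a block the members with an unadjusted p under 0.05 came to 0 in acute against control, 9 in chronic against control and 10 in chronic against acute, where 4.28%, 12.7% and 13.7% of all probe sets did. Cox4i1, Cox4i2, Cox7a1, Sdhc, Uqcrc2, Atp5k and Atp5o were in both of the latter lists, which share their chronic arrays. The lowest adjusted p of a member in that fit was 0.261 against control and 0.253 against acute, so 0 passed.

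The 13 genes with more than 1 probe set gave 21 further readings. The sign was that of the chosen probe set in 14 of 21 in acute against control, 20 in chronic against control and 19 in chronic against acute. Where it differed the values were small, apart from Sdhaf4 and, in both comparisons with the acute group, Atp5pb, subunit b of the stator, whose further probe set read 0.04 beside -0.17 in acute against control. The 2 further probe sets of Atp5h gave -0.24 and -0.28 in chronic against control, beside -0.24 for the chosen one.

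Among genes that work with these complexes 0 passed in limma in any of the lists, in either direction and any comparison. The lists were drawn up with earlier results of these data known. For scale, 53.4% of all probe sets were lower in chronic against control, and 5.38% had an unadjusted p under 0.05. Of 19 genes of the tricarboxylic acid cycle, which feeds electrons to complexes I and II, 16 were lower after chronic MPTP, with a median of -0.08 and an unadjusted p under 0.05 for 1 of them. Idh3b, a subunit of isocitrate dehydrogenase, differed by -0.23 ± 0.10 (adjusted p = 0.918) and the malate dehydrogenase Mdh1 by -0.23 ± 0.11 (adjusted p = 0.929). Of 18 glycolysis genes 12 were lower, with a median of -0.06; the phosphofructokinases Pfkl and Pfkm differed by -0.28 ± 0.12 and -0.21 ± 0.09, and 2 genes had an unadjusted p under 0.05. Mitochondrial chaperones and proteases were lower in 15 of 21 (median -0.08, 1 with an unadjusted p under 0.05).

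Of 14 genes for ATP synthase assembly and ATP-ADP exchange, 10 were lower after chronic MPTP (median -0.08, 0 with an unadjusted p under 0.05), and of 30 electron carriers and assembly factors of complexes III and IV, 18 were (median -0.03, likewise 0). Regulators of mitochondrial biogenesis leaned the other way, higher in 16 of 24 against 46.5% of all probe sets. Their median was 0.04, with 0 at an unadjusted p under 0.05. Among these Ppargc1b, a coactivator of respiratory genes, read 7.91, 8.48 and 8.37 in controls and 8.37, 8.98 and 8.58 after chronic MPTP, a difference of 0.39 ± 0.19 (adjusted p = 0.94). After acute MPTP the list medians lay between -0.02 and 0.03, with 0 genes at an unadjusted p under 0.05, apart from the mitochondrial gene described next.

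The mitochondrially encoded COX2, subunit II of complex IV, was the gene of that kind with a probe set of its own symbol. Its acute difference lay below those of the general nuclear complex IV subunits, which ran from -0.10 to 0.16, but this gap was not tested. COX2 read 13.25, 13.20 and 13.10 in controls, 13.06, 12.74 and 12.95 after acute MPTP and 13.37, 13.13 and 13.12 after chronic MPTP. All acute arrays were below all others. The acute difference was -0.27 ± 0.11 (unadjusted p = 0.0372, adjusted p = 1.0), and chronic MPTP differed from control by 0.02 ± 0.11. A further probe set of COX2 gave -0.27 and 0.04. Cycs, cytochrome c, which carries electrons to complex IV and is made in the nucleus, had the same order of groups: 12.35, 12.28 and 12.29 in controls, 12.21, 11.85 and 12.06 after acute MPTP and 12.64, 12.26 and 12.35 after chronic MPTP. Its acute difference was -0.26 ± 0.12 (adjusted p = 1.0). Acute 2, a cortex-rich array, was the lowest array for COX2 and for Cycs. General nuclear subunits of complex IV had a median acute difference of 0.03.

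Markers of projection neurons, cortex and thalamus differed between groups by more than the members did, those of astrocytes and oligodendrocytes by about as much (median -0.08 each in chronic against control). Choroid plexus and microglia markers had medians of -0.16 and 0.15 in that comparison. After chronic MPTP all 12 tested projection neuron markers of striatum exceeded their control means, with a median difference of 0.55 and summed levels of 47984 to 53413 beside 30844 to 45740. All 12 did so after acute MPTP as well, with a median difference of 0.34. The list mean was -0.37 on control 1 and -0.54 on control 3, beside 0.08 on control 2. Cortical markers were lower after chronic MPTP in 10 of 13 (median -0.51), and thalamic, septal and hypothalamic markers in 14 of 15 (median -0.50). With the cortex and thalamus list means as covariates, 9 of 50 members were higher and 41 lower after chronic MPTP, with a median of -0.11 and 0 passing. Every chronic array had a low cortex list mean (-0.62 to -0.29), so that fit cannot fully separate tissue from group. None of the tested markers was at 0, since the scale has no zero, and the part of these tissues in the members' differences beyond that fit was not tested.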

How the data were processed

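Striatal RNA from 9 samples was measured on 1-colour arrays, 3 per group. The deposited values are log2 intensities per probe set, as their range shows. The authors' background correction, normalization and summary are not given in the sources used here. The values were used as deposited. Of 28815 probe sets, 21780 had 1 gene symbol in the platform annotation, 1605 several and 5430 none. All 51 members were found by identifier in the RefSeq gene table of GRCm38.p6 (names only), with 0 symbols changed.

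Probe sets with 1 symbol and a mean at or above the 25th percentile of all probe sets (17480) were fitted with limma 3.58.1 in R 4.3.3: a mean per group over the 9 arrays (6 residual degrees of freedom), eBayes, two-sided tests, Benjamini-Hochberg adjustment over all of them per comparison, threshold 0.05. Errors are standard errors, n = 3 per group. The code was tested on simulated data. Deviations from group means correlated between same-numbered arrays in 9 of 9 pairs (r = 0.15 to 0.67 across probe sets) and at -0.60 to 0.18 in 18 other pairs. This pairing comes from the values, not from the labels, and a fit with the number as a block was run beside the main one.

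The members and all lists were chosen with earlier results of these data known. Values per array are given for members whose groups do not overlap and differ by at least 0.2, for the 3 smallest p in each direction and comparison, for core subunits and, in part as ranges, for subunits with several forms; lists name at most 2 genes per comparison. Sdhaf3, Uqcr10, Uqcrh and Atp5h, and the promoters shown, were chosen after their values were seen. In addition, 21 other settings were tried, of filter, scaling, model, tissue covariates, probe set choice and arrays left out; 2 of them, a filter over probe sets with 1 symbol and a set without assembly factors and tissue-restricted forms, were chosen after seeing the data.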

Additional observations from a re-analysis of the deposited data

How the results depend on the processing

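With the mean over a gene's probe sets only medians were computed (0.03, -0.08 and -0.08). In each of the other settings tried, 0 members passed in every comparison. The replicate block, a paired fit by number, also left 0 past the threshold and changed no call. Its medians of 0.03, -0.08 and -0.08 had to equal those of the main fit. Each number occurs once in every group, so the block cannot move a group difference. With each array left out in turn, the chronic against control median of the members ran from -0.084 (without control 3) to -0.013 (without chronic 2). Without control 2 it was -0.023. Without the 3 cortex-rich arrays, which leaves acute 3 as the lone acute array, assumed to vary like the other groups, the chronic against acute median was -0.023, and Atp5md in acute against control reversed from -0.19 to 0.026; the cause was not tested. The acute against control median took the opposite sign without control 3 (-0.01) and with tissue covariates (-0.02). After quantile normalization 37 of 50 members were higher in acute against control, beside 32 as deposited. Without chronic 1, 11 members had an unadjusted p under 0.05 in chronic against control and 9 in chronic against acute, beside 3 and 2 with all arrays. The number of arrays limits the precision, at a median standard error of 0.13 per member.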

Other observations

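Cox7c, another small subunit of complex IV, is on 3 probe sets that also name the pseudogene Gm12338, so it is not counted among the 51 genes. On the brightest of them it read 13.00, 12.96 and 12.88 in controls, 12.95, 12.79 and 12.96 after acute MPTP and 13.12, 12.73 and 12.95 after chronic MPTP. Chronic 1 was the highest array and chronic 2 the lowest, as for Cox7b. The difference from control was -0.05 after acute MPTP and -0.01 after chronic MPTP, and the other two probe sets gave -0.05 and -0.07, then -0.01 and -0.03.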
